A study of Saccharomyces cerevisiae with 36 samples.

Results

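The 40 genes described here encode the nuclear subunits of the mitochondrial respiratory chain and of the ATP synthase of the budding yeast Saccharomyces cerevisiae, with a few enzymes that feed electrons into the chain. They were chosen by gene name from a count table of 7126 genes, and all 40 were found and passed the filter on low counts (6109 genes passed). By role they fall into complex II (succinate dehydrogenase, 4 genes), the NADH dehydrogenases that yeast uses in place of complex I (3 genes), complex III (cytochrome bc1 complex, 9 genes), cytochrome c (2 genes), the lactate dehydrogenase CYB2, complex IV (cytochrome c oxidase, 9 genes), and the F1 sector (5 genes) and the Fo and stalk sector (7 genes) of the ATP synthase.

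RNA sequencing was done on 36 libraries in 12 groups of 3 labelled replicates, which combine 4 strains with 3 conditions. Cells were grown in rich glucose medium (YPD) at 25 °C. They then spent 15 min at 37 °C (heat shock), 1 h at 25 °C with 10 mM AzC, or were left untreated. AzC is, by the usual meaning of the abbreviation, azetidine-2-carboxylate, an analogue of proline that cells build into new proteins, which then misfold. All strains are MATa his3∆1 leu2∆0 ura3∆0 met15∆0. In the hsf1∆ strain the HSF1 locus, which encodes the heat shock factor Hsf1, is replaced by a cassette with kanMX and promoter fusions for the chaperone genes YDJ1, HSC82 and SSA2. The HSF1+ strain carries that cassette together with HSF1+, and in addition LYS2. The labelled msn2/4∆ strain is msn2::hphMX4 msn4::natMX4 and lacks, by its label, the general stress factors Msn2 and Msn4. WT has none of these alleles. The hsf1∆ strain is set here against HSF1+, with which it shares the cassette, and HSF1+ and labelled msn2/4∆ are set against WT. The labels do not say whether the replicates were separate cultures, so p-values measure only the spread between these libraries, which may be technical.

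Electrons from succinate, NADH and lactate reach cytochrome c through complexes II and III, the NADH dehydrogenases and Cyb2, and complex IV passes them to oxygen. Complexes III and IV pump protons across the inner membrane, and the ATP synthase makes ATP from the gradient. In yeast growing on glucose these genes are held low by glucose repression, and their transcription on respiratory carbon sources depends on the Hap2/3/4/5 complex, which binds CCAAT boxes. COX5A and CYC1 encode the aerobic isoforms of complex IV subunit 5 and of cytochrome c, and COX5B and CYC7 encode the isoforms known from hypoxic cells. NDE1 and NDE2 encode the external NADH dehydrogenases, which face the intermembrane space.

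Library totals ran from 8159203 to 99558095 counts. The 4 deepest libraries, untreated WT replicates 2 and 3 and AzC-treated HSF1+ replicates 1 and 2, stand apart, since the others reached at most 15448180 counts. HSF1 was measured at 21.2 to 33.3 CPM (a gene's counts scaled to one common library total) in heat-shocked hsf1∆ and at 13.3 to 17.6 CPM in untreated hsf1∆, against 143.5 to 150.2 and 52.7 to 54.8 CPM in heat-shocked and untreated HSF1+, so its reads were reduced but not absent. MSN2 was nearly absent in untreated labelled msn2/4∆, at 0.902 to 1.90 CPM against 121.8 to 127.7 CPM in untreated WT. MSN4 was not, at 45.1 to 55.1 CPM in untreated labelled msn2/4∆ against 30.8 to 43.9 CPM in untreated WT. After heat shock MSN4 had 40.9 to 42.6 CPM in labelled msn2/4∆ against 107.2 to 120.1 CPM in WT, and after AzC 34.9 to 43.5 CPM in labelled msn2/4∆ against 66.3 to 79.4 CPM in WT. The libraries are therefore called labelled msn2/4∆ throughout. Of the genes that define the alpha mating type, MF(ALPHA)1 and MF(ALPHA)2 stayed at or below 1.54 CPM in all libraries, STE3 had 3.71 to 18.95 CPM and SAG1 35.3 to 104.7 CPM, while the MATa markers MFA1, MFA2, STE2 and BAR1 summed to 239.1 to 1754 CPM. The libraries were poly-A selected, and the 7 mitochondrially encoded genes COX1, COX2, COX3, COB, ATP6, ATP8 and OLI1 summed to between 0 and 20 counts per library and were not tested.

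The promoters were read from the reference genome (build R64, the build named in the submitters' processing notes), as the 300 bases before each start codon. CCAAT, on either strand, was found in 34 of the 40 windows (85.0%), against 41.8% of the 5993 windows of all coding genes. CCCCT on either strand, the core of the stress response element bound by Msn2 and Msn4, was found in 18 of 40 (45%), against 22.2% of all windows. TTCNNGAA, the core of the heat shock element bound by Hsf1, was found in 5 of 40 (12.5%), against 13.1% of all. None of the 3 motifs contains another. A match is a description of these letters only. Neither CYC1 nor CYC7 holds CCAAT in its window, and CYC7, NDE2 and COX5B each hold 2 matches to CCCCT. These genes, SDH4 and CYB2 had the largest changes of their roles after heat shock in WT. So had CYT1 in complex III, ATP15 in the F1 sector and ATP17 in the Fo and stalk sector, which are not shown. CYT1 had no match to any of the 3 motifs. ATP15 matched CCAAT and CCCCT, and ATP17 matched CCAAT and TTCNNGAA but not CCCCT. The stretches below are some, not all, of the matches of CYC7, NDE2, COX5B, SDH4 and CYB2, and of COX5A, the paralog of COX5B. Each is read 5′ to 3′ on the gene's own strand with the motif in capitals, where AGGGG and ATTGG are the motifs read on the opposite strand.
CYC7 CCCCT (chrV:80239-80263, minus strand): tcccccgccgAGGGGtcttttccca
CYC7 CCCCT (chrV:80155-80179, minus strand): agtggccgcaAGGGGcaaagacaaa
NDE2 CCCCT (chrIV:303048-303072, plus strand): ctacaggcctCCCCTaataagtcag
NDE2 CCCCT (chrIV:303063-303087, plus strand): aataagtcagCCCCTccctttggag
COX5B CCCCT (chrIX:155034-155058, plus strand): atgtcatggaCCCCTtaaaattact
COX5B CCCCT (chrIX:155050-155074, plus strand): aaaattactgAGGGGttcagaaaat
CYB2 CCCCT (chrXIII:167515-167539, minus strand): atctccttgcCCCCTcctcctgttc
SDH4 CCCCT (chrIV:817795-817819, plus strand): tcgagcgatcAGGGGaccgactgcg
CYB2 CCAAT (chrXIII:167482-167506, minus strand): tacgacccgaCCAATaataatgtca
SDH4 CCAAT (chrIV:817707-817731, plus strand): aagcattgagCCAATcgctgctgtt
COX5B CCAAT (chrIX:154965-154989, plus strand): atgacactcaCCAATttcttttttt
COX5A CCAAT (chrXIV:531545-531569, plus strand): caaaaatcgtCCAATagacgttttc

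Heat shock raised most of the module in WT. Of the 40 genes 32 were higher and 3 lower in heat-shocked than in untreated WT cells (edgeR quasi-likelihood test, Benjamini-Hochberg adjusted p below 0.05 over 6109 genes), where 42.0% of all genes tested were higher and 38.1% lower. The median log2 change was 0.97 for the 40 genes and 0.05 for all genes. Of the 40 genes 17 were higher by at least 2-fold, a count given without the share of all genes. The 40 genes together took 0.735% ± 0.087 of all counts in heat-shocked WT and 0.39% ± 0.0416 in untreated WT (SD, n = 3 each). The largest changes were in CYC7, NDE2, CYB2 and COX5B. Levels of single genes are given from here on as CPM scaled by TMM factors, in the order of replicates 1 to 3, and log2 changes with their standard error. Replicate 1 had the smallest change in each heat-shocked group, with a median over the 40 genes of 0.73 in replicate 1 of heat-shocked WT and of 0.79 and 1.18 in replicates 2 and 3. The comparisons of heat shock and of AzC with untreated cells share the untreated libraries of a strain. In bulk RNA, fewer cells with a transcript and less of it per cell cannot be told apart.

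**Figure D1:**
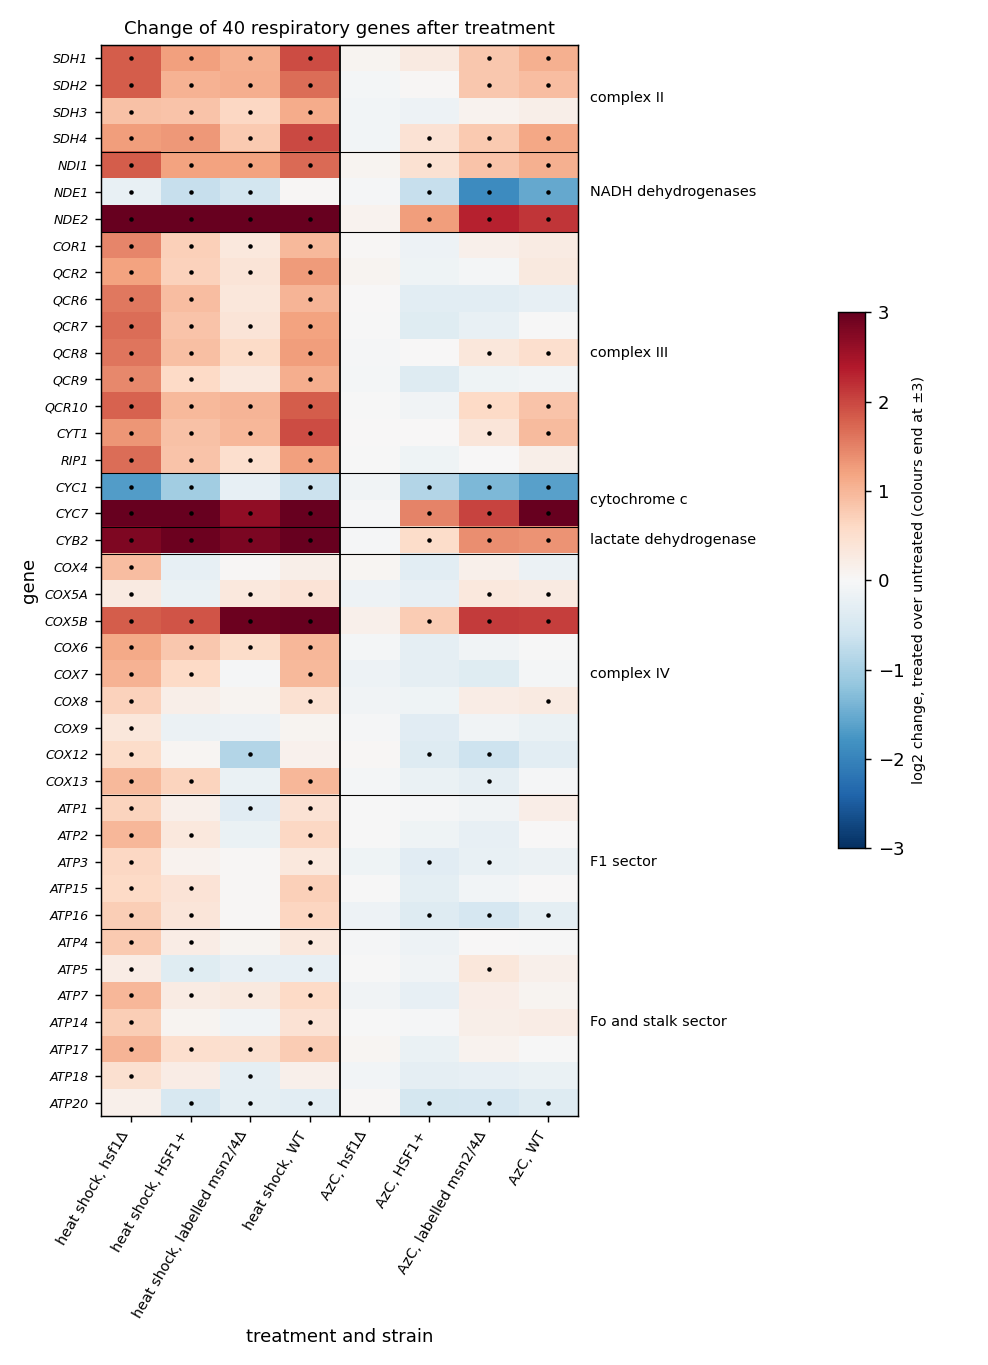
Log2 change of each of the 40 genes (rows, by role) in treated over untreated cells, for heat shock and AzC in the 4 strains (columns); a dot marks an adjusted p below 0.05, and colours end at ±3. The heat shock columns are mostly red, the AzC column of hsf1∆ is pale with 0 dots, and CYC1 runs opposite to CYC7 in the columns where both carry a dot.

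All 4 complex II genes rose after heat shock in WT, with a median log2 change of 1.81. SDH4, a membrane anchor subunit, had 197.4, 225.9 and 263.2 CPM in the 3 heat-shocked WT libraries and 51.0, 52.5 and 69.0 CPM in the untreated ones, a log2 change of 1.99 ± 0.14, adjusted p = 1.13e-13. SDH1, the flavoprotein that oxidises succinate, rose by nearly as much (1.95 ± 0.20, adjusted p = 5.78e-10). SDH3, the cytochrome b subunit, rose least of the 4 (1.11 ± 0.12, adjusted p = 3.29e-09). Heat-shocked and untreated WT libraries did not overlap for any of these genes, which is given without the share of all genes.

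Among the NADH dehydrogenases, NDI1, which oxidises NADH of the matrix, rose with a log2 change of 1.71 ± 0.19, adjusted p = 2.59e-09 in WT. NDE2 had 54.4, 60.9 and 69.5 CPM in heat-shocked WT libraries and 2.76, 1.90 and 1.88 CPM in untreated ones, a change of 4.90 ± 0.23, adjusted p = 5.18e-17, or 29.8-fold. NDE1, its paralog, had 249.5, 254.1 and 245.2 CPM in heat-shocked and 241.2, 235.6 and 256.4 CPM in untreated WT libraries, which overlap (0.03 ± 0.10, adjusted p = 0.783). CYB2, which oxidises L-lactate and passes the electrons to cytochrome c, had 67.2, 84.1 and 103.9 CPM in heat-shocked WT libraries and 4.18, 3.52 and 4.51 CPM in untreated ones (4.40 ± 0.20, adjusted p = 3.02e-17, 21.0-fold). The lowest heat-shocked library lay far above the highest untreated library for NDE2 and for CYB2.

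All 9 complex III genes rose in WT, with a median log2 change of 1.24 and a range of 0.98 to 1.95. The largest change was in CYT1, which encodes cytochrome c1 (1.95 ± 0.15, adjusted p = 3.18e-12), and the smallest in the core subunit gene COR1 (0.98 ± 0.14, adjusted p = 3.35e-07). CYT1 had 176.4, 193.7 and 250.0 CPM in heat-shocked and 45.04, 46.1 and 69.4 CPM in untreated WT libraries. For all 9 genes the heat-shocked libraries lay above the untreated ones without overlap, a count given without the share of all genes. Cytochrome c, which carries electrons from complex III to complex IV, split by isoform. CYC7 had 173.9, 186.1 and 277.1 CPM in heat-shocked WT libraries and 3.21, 2.29 and 4.46 CPM in untreated ones, the largest change of the module (6.01 ± 0.27, adjusted p = 2.29e-17, 64.3-fold). CYC1 had 20.2, 17.6 and 17.1 CPM in heat-shocked and 27.1, 23.2 and 35.6 CPM in untreated WT libraries, and fell (-0.65 ± 0.16, adjusted p = 0.000404), the most negative change of the module.

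Of the 9 complex IV genes 6 rose and 3 did not pass the test in WT, with a median log2 change of 0.47. COX5B had 192.9, 193.8 and 216.1 CPM in heat-shocked WT libraries and 20.5, 21.2 and 32.6 CPM in untreated ones (3.01 ± 0.21, adjusted p = 1.64e-13). COX5A had 98.3, 101.8 and 113.7 CPM in heat-shocked and 74.3, 73.3 and 89.9 CPM in untreated WT libraries, a smaller rise (0.40 ± 0.11, adjusted p = 0.00135). COX9, a small subunit, had the least change (0.09 ± 0.14, adjusted p = 0.574), and COX4 and COX12 did not pass the test either, at log2 changes of 0.18 ± 0.19 and 0.12 ± 0.15. COX6, COX7 and COX13 changed by 1.00 ± 0.13, 0.97 ± 0.18 and 0.98 ± 0.12 on the log2 scale.

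ATP synthase genes changed less than those of complexes II and III, with no gene past 2-fold in WT. All 5 genes of the F1 sector, the catalytic head, rose, from the gamma subunit gene ATP3 (0.32 ± 0.09, adjusted p = 0.00168) to the epsilon subunit gene ATP15 (0.72 ± 0.15, adjusted p = 5.67e-05). With the compared groups alone the calls on ATP3, ATP4 and COX8 were lost, with adjusted p of 0.0672, 0.0575 and 0.0534. The beta subunit gene ATP2, the most abundant member per length in untreated WT, averaged 1084 ± 171.8 CPM in heat-shocked and 706.1 ± 46.0 CPM in untreated WT (SD, n = 3 each). Of the 7 genes of the Fo and stalk sector 4 rose, led by the subunit f gene ATP17 (0.75 ± 0.11, adjusted p = 2.62e-07), ATP18 did not pass the test (0.15 ± 0.12), and 2 fell. The genes that fell were ATP20, which encodes subunit g (-0.33 ± 0.14, adjusted p = 0.0286), and ATP5, which encodes the OSCP subunit of the stalk (-0.25 ± 0.08, adjusted p = 0.00988). Heat-shocked and untreated libraries overlapped for both. Both calls were lost with scaling to library size alone, with replicates 2 and 3 alone and without untreated WT replicate 3, and that on ATP20 also without untreated WT replicate 1 or heat-shocked WT replicate 1 or 2, with an adjusted p of up to 0.0895 for ATP5 and 0.297 for ATP20.

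Heat shock gave 37 higher and 2 lower genes of 40 in hsf1∆, where 38.2% of all genes were higher and 38.4% lower. In HSF1+ the counts were 27 higher and 4 lower (40% and 36.5% of all genes), and in labelled msn2/4∆ 20 higher and 6 lower (43.5% and 34.0% of all genes). The 2 lower genes in hsf1∆ were CYC1 (-1.67 ± 0.16, adjusted p = 1.82e-10) and NDE1 (-0.22 ± 0.10, adjusted p = 0.0442). The call on NDE1 was lost with RLE or library size scaling, with DESeq2, with the compared groups alone, with the deep libraries thinned, with replicates 2 and 3 alone and without any one of its 6 libraries, with an adjusted p of up to 0.447. The median log2 change of the 40 genes was 1.01 in hsf1∆, 0.60 in HSF1+, 0.31 in labelled msn2/4∆ and 0.97 in WT. For labelled msn2/4∆ the split into higher and lower depends on the scaling, with 24 higher and 2 lower under library size alone. Over all 6109 genes that scaling gave 3114 higher and 1698 lower. In all 4 strains 19 genes were higher after heat shock, against 27.3% of all genes, and 0 were lower, against 25.8% of all genes. The 19 genes are the 4 complex II genes, 7 of the 9 complex III genes (all but QCR6 and QCR9), NDI1, NDE2, CYC7, CYB2, COX5B, COX6, ATP7 and ATP17.

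**Figure D2:**
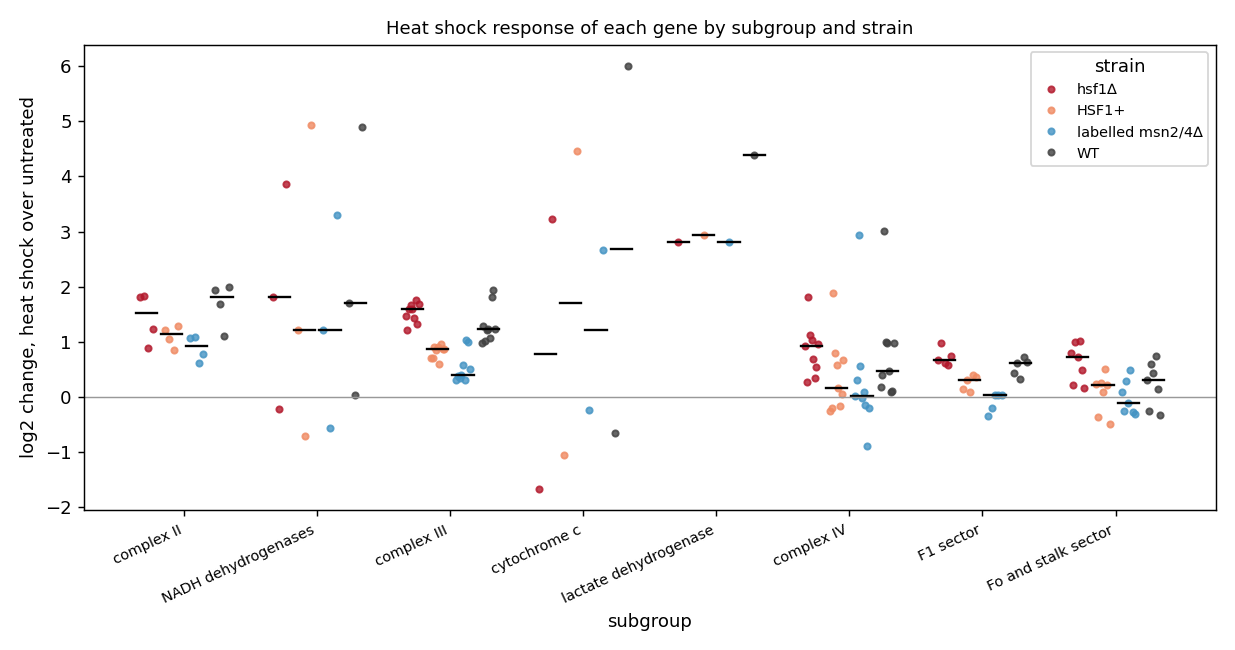
Log2 change of heat-shocked over untreated cells for each gene (1 point a gene), by role along the horizontal axis and by strain in colour; the black line is the median of a role. Complex III runs from a median of 0.39 in labelled msn2/4∆ to 1.59 in hsf1∆, and the spread is widest for the NADH dehydrogenases and cytochrome c.

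The test of the difference between responses separated hsf1∆ from HSF1+ for 24 of the 40 genes. For 21 of them the change was more positive in hsf1∆ and for 3 more negative, where 8.04% of all genes had a more positive and 14.2% a more negative response. The 21 include 7 of 9 complex III genes, 6 of 7 Fo and stalk genes, 3 of 5 F1 genes and 3 of 9 complex IV genes. QCR7, a small subunit of complex III, had 253.5, 329.2 and 391.4 CPM in heat-shocked and 89.9, 99.3 and 115.5 CPM in untreated hsf1∆ libraries. In HSF1+ it had 204.7, 241.3 and 287.0 CPM after heat shock and 135.9, 123.5 and 147.3 CPM without it, and the responses differed by 0.83 ± 0.22, adjusted p = 0.00781. COX4, a subunit of complex IV, had the largest positive difference. It had 137.3, 223.1 and 268.9 CPM in heat-shocked and 103.5, 96.0 and 131.6 CPM in untreated hsf1∆ libraries. In HSF1+ libraries it had 79.9, 88.5 and 119.5 CPM after heat shock and 112.4, 110.9 and 118.1 CPM without it, and the responses differed by 1.17 ± 0.28, adjusted p = 0.00234. COX4 rose in hsf1∆ (0.92 ± 0.19, adjusted p = 0.000106) and did not pass the test in HSF1+ (-0.25 ± 0.19, adjusted p = 0.252).

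The 3 genes with a more negative response in hsf1∆ than in HSF1+ were CYC7, NDE2 and CYC1. CYC7 had 273.8, 354.9 and 463.8 CPM in heat-shocked and 37.3, 37.2 and 41.7 CPM in untreated hsf1∆ libraries. In HSF1+ it had 205.4, 268.2 and 334.1 CPM after heat shock and 12.9, 9.23 and 14.7 CPM without it. The responses differed by -1.22 ± 0.32, adjusted p = 0.00544, with a higher level in hsf1∆ before treatment (1.66 ± 0.24, adjusted p = 3.05e-06). NDE2 differed by -1.08 ± 0.37, adjusted p = 0.037 and CYC1 by -0.61 ± 0.22, adjusted p = 0.047. The calls on NDE2 and CYC1 were lost with RLE scaling, with the compared groups alone and without any one of several libraries, each of the untreated hsf1∆ libraries among them, with an adjusted p of up to 0.156 for NDE2 and 0.313 for CYC1.

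The heat shock response of labelled msn2/4∆ was more negative than that of WT for 24 of the 40 genes. It was more positive for 0 (edgeR, and also 0 at an unadjusted p below 0.05 and with DESeq2). Over all genes 16.3% had a more positive and 13.9% a more negative response in labelled msn2/4∆. All 9 complex III genes were among the 24, with differences of -0.94 to -0.66, together with 4 of 5 F1 genes, 3 of 4 complex II genes, 3 of 9 complex IV genes and 1 of 7 Fo and stalk genes. CYC7 differed most: it had 14.2, 13.2 and 13.7 CPM in heat-shocked and 1.52, 2.66 and 2.38 CPM in untreated labelled msn2/4∆ libraries, and its response differed from that of WT by -3.34 ± 0.46, adjusted p = 2.53e-06. It still rose in labelled msn2/4∆ (2.67 ± 0.32, adjusted p = 1.77e-08). NDE2 had 15.9, 15.2 and 18.8 CPM in heat-shocked and 1.68, 1.43 and 1.94 CPM in untreated labelled msn2/4∆ libraries, and differed from WT by -1.60 ± 0.40, adjusted p = 0.00338. CYB2 had 13.6, 13.4 and 12.8 CPM and 2.44, 1.71 and 1.41 CPM in the heat-shocked and untreated libraries of that strain, and differed by -1.58 ± 0.35, adjusted p = 0.00108.

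SDH4, COX13 and COX12 also differed by more than 2-fold. SDH4 had 97.8, 93.5 and 108.9 CPM in heat-shocked and 54.2, 53.2 and 66.2 CPM in untreated labelled msn2/4∆ libraries, and its response differed from that of WT by -1.20 ± 0.19, adjusted p = 1.83e-05. COX13, a small subunit of complex IV, had 67.8, 62.7 and 70.2 CPM in heat-shocked and 83.9, 72.6 and 72.4 CPM in untreated labelled msn2/4∆ libraries. In WT it had 177.1, 161.0 and 198.6 CPM after heat shock and 88.8, 80.8 and 101.6 CPM without it, and the responses differed by -1.18 ± 0.17, adjusted p = 6.54e-06. COX12 fell in labelled msn2/4∆ (-0.89 ± 0.16, adjusted p = 1.09e-05) and did not pass the test in WT, and these responses differed by -1.01 ± 0.22, adjusted p = 0.00085. COX5B had 65.8, 64.4 and 65.9 CPM in heat-shocked and 6.32, 7.32 and 11.96 CPM in untreated labelled msn2/4∆ libraries, a change of 2.94 ± 0.23, adjusted p = 3.11e-12. Its response differed from that of WT by -0.07 ± 0.30, adjusted p = 0.892, which did not pass the test.

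Read against the promoter motifs, with no test, the 18 genes with a CCCCT match had a median log2 change after heat shock of 1.38 in WT (range 0.44 to 6.01), and the 22 without had 0.41 (range -0.65 to 1.95). The difference between labelled msn2/4∆ and WT had a median of -0.72 for the 18 genes and -0.43 for the 22. The 34 genes with CCAAT had a median change of 0.86 in WT and the 6 without had 1.46. The 5 genes with the heat shock core, ATP17, QCR7, QCR10, RIP1 and SDH2, had a median change of 1.24 in WT and the 35 without had 0.72. For the difference between labelled msn2/4∆ and WT the medians were -0.59 with and -0.80 without CCAAT. They were -0.73 with and -0.60 without the heat shock core. The heat shock response of hsf1∆ against that of HSF1+ had medians of 0.80 with and 0.51 without that core. For CCCCT these were 0.55 and 0.51, and for CCAAT 0.51 and -0.08.

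AzC moved fewer of these genes. In WT 13 were higher and 4 lower than in untreated cells, where 34.2% of all genes were higher and 32.7% lower. Neither count exceeds its share of all genes. With the replicate number as a block the counts were 19 higher and 8 lower, and with scaling to library size alone 19 higher and 2 lower. Over all 6109 genes they were 2191 and 2118 with the block, and 2614 and 1493 with library size alone. The median log2 change of the 40 genes was 0.11. CYC7 again changed most, with 24.1, 29.3 and 39.5 CPM in AzC-treated WT libraries against 3.21, 2.29 and 4.46 CPM in untreated ones (3.23 ± 0.26, adjusted p = 1.57e-11). CYC1 had 9.37, 8.33 and 10.2 CPM in AzC-treated against 27.1, 23.2 and 35.6 CPM in untreated WT libraries and fell most (-1.63 ± 0.16, adjusted p = 1.38e-09). NDE1 had 99.0, 75.1 and 78.8 CPM in AzC-treated WT libraries and fell likewise (-1.54 ± 0.10, adjusted p = 2.81e-13), while NDE2 had 6.32, 11.6 and 9.35 CPM and rose (2.13 ± 0.25, adjusted p = 1.49e-08). The treated libraries of these 4 genes did not overlap the untreated ones, which is given without the share of all genes.

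COX5B had 79.3, 108.7 and 129.6 CPM in AzC-treated WT libraries (2.08 ± 0.20, adjusted p = 7.26e-10), and CYB2 had 9.08, 10.7 and 10.9 CPM (1.34 ± 0.21, adjusted p = 2.22e-06). COX5A had 89.2, 100.1 and 98.2 CPM (0.27 ± 0.11, adjusted p = 0.0267), which overlap the untreated libraries. This call was lost with DESeq2, with the deep libraries thinned, without untreated WT replicate 1 or 2 and without AzC-treated WT replicate 2 or 3, with an adjusted p of up to 0.115. In complex II, SDH1, SDH2 and SDH4 rose, led by SDH4 (1.17 ± 0.13, adjusted p = 1.24e-08), and SDH3 did not pass the test (0.18 ± 0.12). NDI1 rose (1.07 ± 0.19, adjusted p = 1.05e-05). In complex III, CYT1, QCR10 and QCR8 rose, with CYT1 at 0.94 ± 0.15, adjusted p = 3.74e-06, and the other 6 genes did not pass the test. Of the 12 ATP synthase genes 0 rose, while ATP20 (-0.39 ± 0.14, adjusted p = 0.0123) and ATP16 (-0.28 ± 0.12, adjusted p = 0.036) fell. Both calls were lost with scaling to library size alone and without AzC-treated WT replicate 2, and that on ATP16 also without AzC-treated WT replicate 1 or untreated WT replicate 3, with an adjusted p of up to 0.0898 for ATP20 and 0.283 for ATP16. In AzC-treated WT cells 1 of the 40 genes was higher and 32 were lower than in heat-shocked WT cells, where 30.5% of all genes were higher and 32.7% lower. The higher gene was ATP5 (0.40 ± 0.09, adjusted p = 0.000185), and the lowest was CYB2 (-3.06 ± 0.19, adjusted p = 1.90e-13). The temperature, the agent and the length of treatment all differ between these groups.

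None of the 40 genes passed the test for AzC in hsf1∆ with edgeR, 0 had an unadjusted p below 0.05 and 0 were called with DESeq2. Of all genes 0% were higher and 0.0164% lower, the last being 1 gene. The log2 changes of the 40 genes lay between -0.16 and 0.16. CYC7 had 35.1, 45.5 and 32.4 CPM in AzC-treated and 37.3, 37.2 and 41.7 CPM in untreated hsf1∆ libraries, which overlap. In HSF1+ AzC gave 6 higher and 6 lower genes (23.0% and 21.9% of all genes), counts that do not exceed those shares. This split depends on the scaling, with 5 higher and 12 lower under library size alone and 5 higher and 11 lower with DESeq2. Over all genes library size alone gave 1199 higher and 1451 lower of 6109, and DESeq2 1176 and 1608 of 6279. CYC7 had 34.5, 31.4 and 37.4 CPM in AzC-treated HSF1+ libraries against 12.9, 9.23 and 14.7 CPM in untreated ones (1.48 ± 0.24, adjusted p = 1.28e-05). NDE2, COX5B, CYB2, NDI1 and SDH4 also rose, and CYC1, NDE1, ATP20, COX12, ATP16 and ATP3 fell.

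The responses to AzC differed between hsf1∆ and HSF1+ for 6 of the 40 genes, 3 more positive and 3 more negative in hsf1∆, where 7.55% of all genes were more positive and 13.0% more negative. These counts do not exceed the shares of all genes. Under library size alone the split was 3 and 1, and 495 and 659 over all 6109 genes. CYC7 differed by -1.52 ± 0.32, adjusted p = 0.00117, NDE2 by -1.14 ± 0.41, adjusted p = 0.0496 and SDH4 by -0.52 ± 0.19, adjusted p = 0.0488. CYC1 (0.79 ± 0.21, adjusted p = 0.00861), NDE1 (0.65 ± 0.14, adjusted p = 0.00114) and ATP20 (0.56 ± 0.19, adjusted p = 0.0372) were the more positive ones. The calls on NDE2 and SDH4 were lost with RLE scaling, with library size alone and without any one of several libraries, each of the untreated hsf1∆ libraries among them, with an adjusted p of up to 0.133 for NDE2 and 0.166 for SDH4. In labelled msn2/4∆ AzC gave 13 higher and 7 lower genes (36% and 31.0% of all genes), counts that do not exceed those shares. Library size alone gave 20 higher and 5 lower, and 2971 higher and 1377 lower over all 6109 genes. No gene of the 40 responded differently to AzC in labelled msn2/4∆ and in WT by edgeR or by DESeq2, and 4 had an unadjusted p below 0.05, all more negative. Of all genes 0.524% responded more positively and 1.05% more negatively. CYC7 had 8.06, 8.50 and 9.88 CPM in AzC-treated labelled msn2/4∆ libraries, and its responses differed by -1.20 ± 0.44, adjusted p = 0.221.

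The 3 pairs of isoforms were followed as ratios within each library, which need no scaling between libraries. Of aligned coding bases 69.3% were identical between COX5A and COX5B, 78.1% between CYC1 and CYC7 and 66.1% between NDE1 and NDE2. The longest identical run was 11 bases for COX5A and COX5B, 35 for CYC1 and CYC7 and 11 for NDE1 and NDE2. Reads from shared stretches could be assigned to either paralog, and how many were was not tested. In all 3 pairs the ratio of the first to the second isoform was lower after heat shock in each of the 4 strains. After AzC the ratio of CYC1 over CYC7 shifted by -0.04 on the log2 scale in hsf1∆, against -2.39 in HSF1+, and by -3.37 in labelled msn2/4∆, against -4.84 in WT.

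Per length of coding sequence, CYC7 made up 96.1% of the cytochrome c counts in heat-shocked, 46.3% in AzC-treated and 45.6% in untreated hsf1∆ (means of 3 libraries). In HSF1+ the shares were 93.5% after heat shock, 62.9% after AzC and 24.6% untreated. In labelled msn2/4∆ they were 32.2%, 39.7% and 6.07% in the same order, and in WT 91.4%, 75.8% and 9.96%. CYC7 was the more abundant isoform after heat shock in 3 of the strains, and CYC1 in labelled msn2/4∆, where the share after heat shock was 31.6 to 32.8% over the 3 libraries against 89.2 to 94.0% in WT. The log2 ratio of CYC1 over CYC7 shifted by -4.98 after heat shock (exact permutation p = 1.25e-05, adjusted over 6 tests 2.50e-05, two-sided) and by -2.66 after AzC (exact permutation p = 0.0001, adjusted over 6 tests 0.0001), as means over strains with labels permuted within each strain. The smallest p that this test can give is 1.25e-05.

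COX5B made up 57.5% of the COX5 counts per length in heat-shocked hsf1∆, 36.1% in AzC-treated and 31.5% in untreated hsf1∆. The shares were 65.5%, 47.4% and 30.7% in HSF1+, 39.3%, 26.2% and 9.46% in labelled msn2/4∆, and 66.1%, 52.3% and 23.8% in WT, each after heat shock, after AzC and untreated. The log2 ratio of COX5A over COX5B shifted by -2.24 after heat shock (exact permutation p = 1.25e-05, adjusted over 6 tests 2.50e-05) and by -1.23 after AzC (exact permutation p = 2.50e-05, adjusted over 6 tests 3.75e-05). Within strains, given without a test since 3 against 3 libraries cannot reach p below 0.1, the heat shock shift was -1.56 in hsf1∆, -2.10 in HSF1+, -2.67 in labelled msn2/4∆ and -2.64 in WT. The AzC shift was -0.29 in hsf1∆, -1.03 in HSF1+, -1.79 in labelled msn2/4∆ and -1.82 in WT.

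NDE2 stayed the rarer isoform in all 12 groups. Its share of the NDE counts per length was highest in heat-shocked WT, at 20.2% (18.3 to 22.6% over the 3 libraries), against 0.92% in untreated WT. In heat-shocked hsf1∆ it was 4.48%, in heat-shocked HSF1+ 14.2% and in heat-shocked labelled msn2/4∆ 8.99%. The log2 ratio of NDE1 over NDE2 shifted by -4.57 after heat shock (exact permutation p = 1.25e-05, adjusted over 6 tests 2.50e-05) and by -2.45 after AzC (exact permutation p = 0.0001, adjusted over 6 tests 0.0001). Within strains the AzC shift was -0.09 in hsf1∆, -1.94 in HSF1+, -4.19 in labelled msn2/4∆ and -3.58 in WT, and the heat shock shift -4.04, -5.62, -3.84 and -4.79 in the same order of strains. NDE1 itself fell after heat shock in HSF1+ (-0.70 ± 0.10, adjusted p = 3.10e-07) and labelled msn2/4∆ (-0.56 ± 0.10, adjusted p = 1.17e-05), and did not pass the test in heat-shocked WT. NDE1 fell after AzC in HSF1+ (-0.70 ± 0.10, adjusted p = 2.43e-06), labelled msn2/4∆ (-1.89 ± 0.10, adjusted p = 4.10e-15) and WT.

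**Figure D3:**
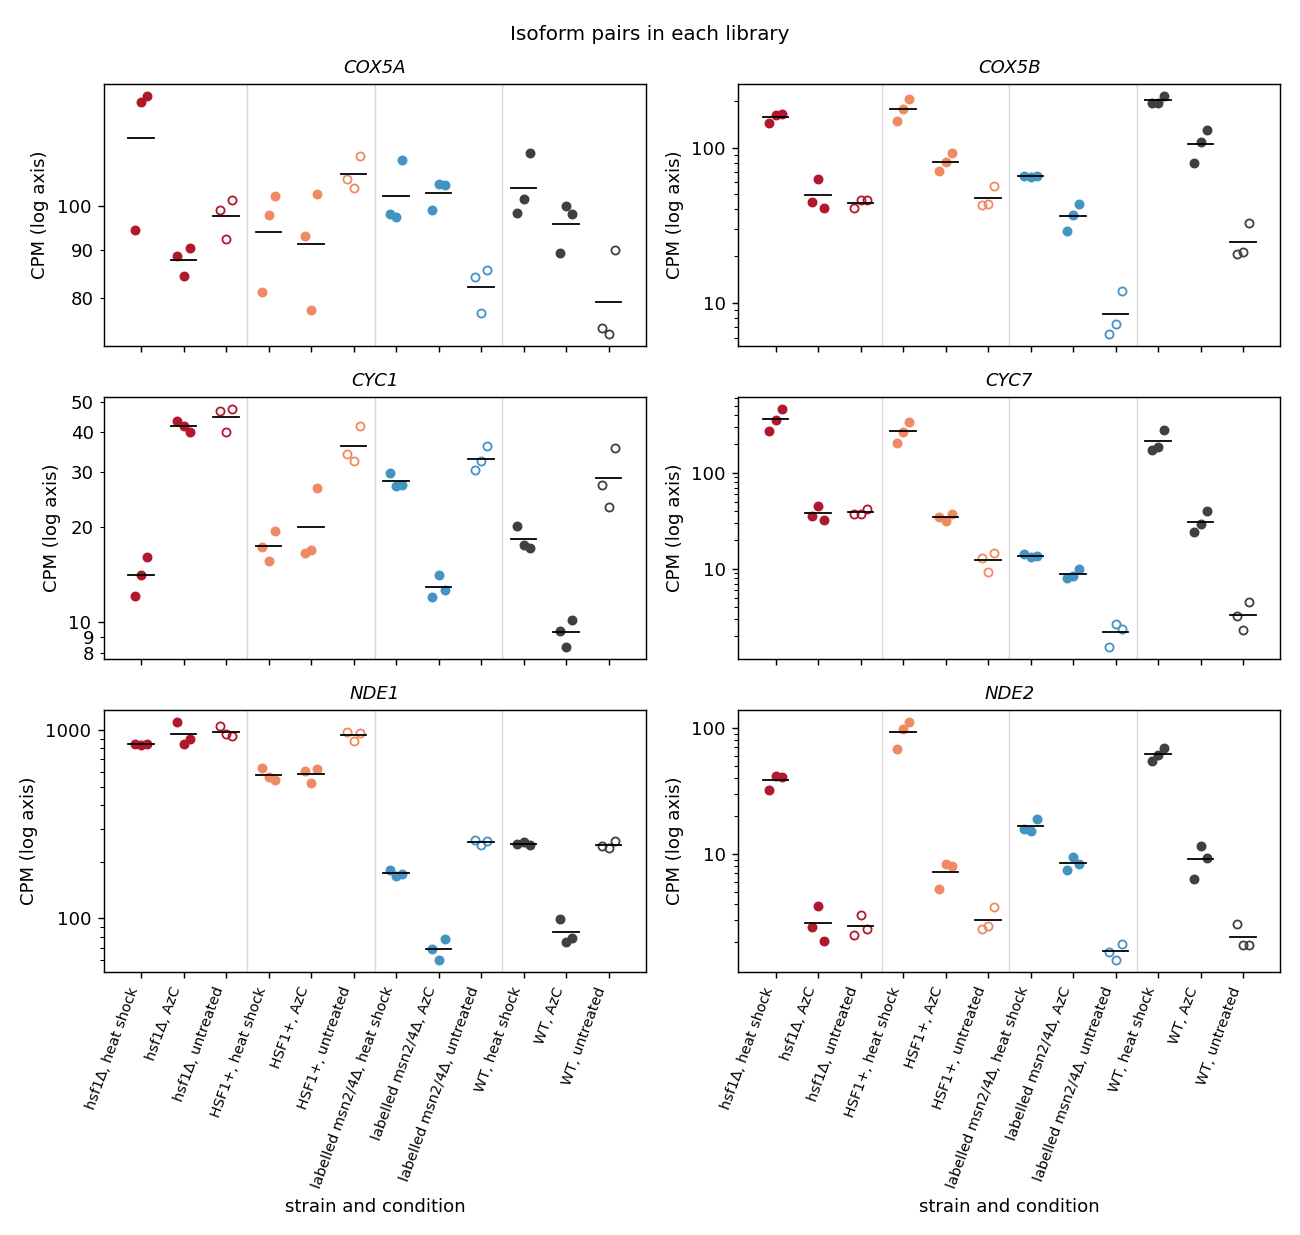
Level of the 6 isoform genes in each library, in CPM on a log axis, by strain and condition; filled points are treated and open points untreated libraries, and the black line is the mean of 3. CYC7, COX5B and NDE2, in the right column, are higher after heat shock in all 4 strains, and after AzC in all strains but hsf1∆.

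Untreated HSF1+ cells, which carry the chaperone cassette, had higher levels of 32 of the 40 genes than untreated WT cells, and lower levels of 0 (edgeR, with 0 lower also at an unadjusted p below 0.05 and with DESeq2). Of all genes 17.5% were higher and 12.6% lower, and the median log2 difference was 0.51 for the 40 genes against -0.03 for all. CYB2 had 43.1, 43.8 and 52.2 CPM in untreated HSF1+ libraries and 4.18, 3.52 and 4.51 CPM in untreated WT libraries (3.52 ± 0.20, adjusted p = 3.10e-14, 11.5-fold). NDE1 had 982.2, 876.9 and 969.7 CPM in HSF1+ and 241.2, 235.6 and 256.4 CPM in WT (1.95 ± 0.10, adjusted p = 6.91e-15), and NDI1 differed by 1.70 ± 0.19, adjusted p = 1.51e-08. COX7, a small subunit of complex IV, had 91.9, 98.2 and 108.8 CPM in HSF1+ and 31.6, 22.5 and 33.6 CPM in WT (1.77 ± 0.18, adjusted p = 2.28e-09), while the other complex IV genes differed by at most 0.93. Likewise ATP18 differed by 1.32 ± 0.12, adjusted p = 2.78e-10, while the other ATP synthase genes differed by at most 0.47. CYC7 was higher (1.89 ± 0.27, adjusted p = 1.40e-06), and CYC1 did not pass the test (0.33 ± 0.15, adjusted p = 0.0914). All 4 complex II genes and 8 of the 9 complex III genes were higher. These HSF1+ libraries also serve as the set against which hsf1∆ is compared. The HSF1+ strain differs from WT in the cassette, in kanMX and in LYS2, and these cannot be told apart. Scaled to library totals alone, MSN2 had 252.1 to 270.9 CPM in untreated HSF1+ and 121.8 to 127.7 CPM in untreated WT. MSN4 had 52.0 to 66.9 and 30.8 to 43.9 CPM in the same order, and HSF1 52.7 to 54.8 and 87.8 to 94.6 CPM. Whether these levels take part in the differences of the 40 genes was not tested.

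**Figure D4:**
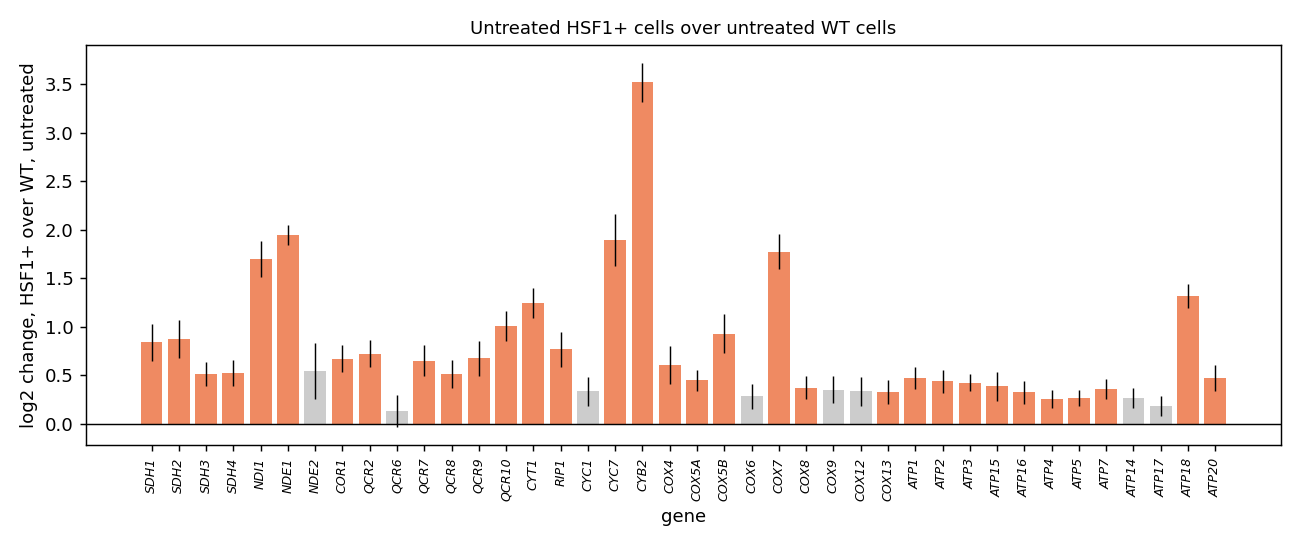
Log2 difference of untreated HSF1+ over untreated WT cells for each gene (bars, in order of role), with the standard error of the fit; coloured bars have an adjusted p below 0.05 and grey bars do not. All bars are above 0, and CYB2, NDE1, CYC7, COX7 and NDI1 stand highest.

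Untreated hsf1∆ differed from untreated HSF1+ in 13 genes, 5 higher and 8 lower, where 19.5% of all genes were higher and 18.9% lower. The count of higher genes is below the share of all genes, and that of lower genes is near it. The direction of the split into higher and lower depends on the scaling, with 11 higher and 1 lower under library size alone. Over all 6109 genes that scaling gave 1598 higher and 488 lower. CYC7 had 37.3, 37.2 and 41.7 CPM in untreated hsf1∆ libraries and 12.9, 9.23 and 14.7 CPM in untreated HSF1+ libraries (1.66 ± 0.24, adjusted p = 3.05e-06). CYB2 (0.78 ± 0.17, adjusted p = 0.000638), COX13 (0.71 ± 0.12, adjusted p = 3.18e-05), RIP1 (0.65 ± 0.18, adjusted p = 0.00521) and SDH4 (0.51 ± 0.13, adjusted p = 0.00332) were also higher. With a 2-fold minimum the call on CYC7 was the one left of these 5, and under the other alternatives all 5 kept an adjusted p below 0.05. The 8 lower genes, QCR6, QCR7, QCR10, ATP2, ATP4, ATP5, ATP17 and ATP20, had log2 differences of -0.46 to -0.28. Untreated labelled msn2/4∆ differed from untreated WT in 2 genes, both lower, and 0 were higher at an adjusted or an unadjusted p below 0.05 or with DESeq2 (0.262% of all genes were higher and 0.786% lower). COX5B had 6.32, 7.32 and 11.96 CPM in untreated labelled msn2/4∆ and 20.5, 21.2 and 32.6 CPM in untreated WT libraries, without overlap (-1.55 ± 0.23, adjusted p = 9.54e-05). CYB2 had 2.44, 1.71 and 1.41 CPM in untreated labelled msn2/4∆ and 4.18, 3.52 and 4.51 CPM in untreated WT libraries (-1.10 ± 0.27, adjusted p = 0.0392). The call on CYB2 was lost with the compared groups alone, with the deep libraries thinned and without untreated WT replicate 1 or 3 or untreated labelled msn2/4∆ replicate 2 or 3, with an adjusted p of up to 0.255.

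Per kilobase of coding sequence, ATP2 had the highest level of the 40 genes in untreated WT, at 459.7 ± 29.9 CPM per kb (SD, n = 3), followed by COX9 at 379.5 ± 39.8, ATP15 at 368.1 ± 55.2 and ATP18 at 363.8 ± 34.0 CPM per kb, and the last 3 did not differ beyond their spread. The lowest were CYC7 at 9.71 ± 3.19, CYB2 at 2.29 ± 0.284 and NDE2 at 1.33 ± 0.307 CPM per kb. After heat shock CYC7 reached 620.9 ± 164.9 CPM per kb in WT, beside 705.7 ± 111.9 for ATP2 and 605.8 ± 92.0 for ATP15. CYC7 in heat-shocked hsf1∆ reached 1065 ± 278.8 CPM per kb, and in heat-shocked labelled msn2/4∆ 40.1 ± 1.39. The 40 genes together took 1.43% ± 0.191 of all counts in heat-shocked, 0.694% ± 0.0383 in AzC-treated and 0.704% ± 0.036 in untreated hsf1∆ (SD, n = 3 each). The shares were 0.877% ± 0.1, 0.565% ± 0.054 and 0.654% ± 0.058 in HSF1+ and 0.439% ± 0.0209, 0.395% ± 0.0145 and 0.357% ± 0.0241 in labelled msn2/4∆, in the same order of conditions.

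**Figure D5:**
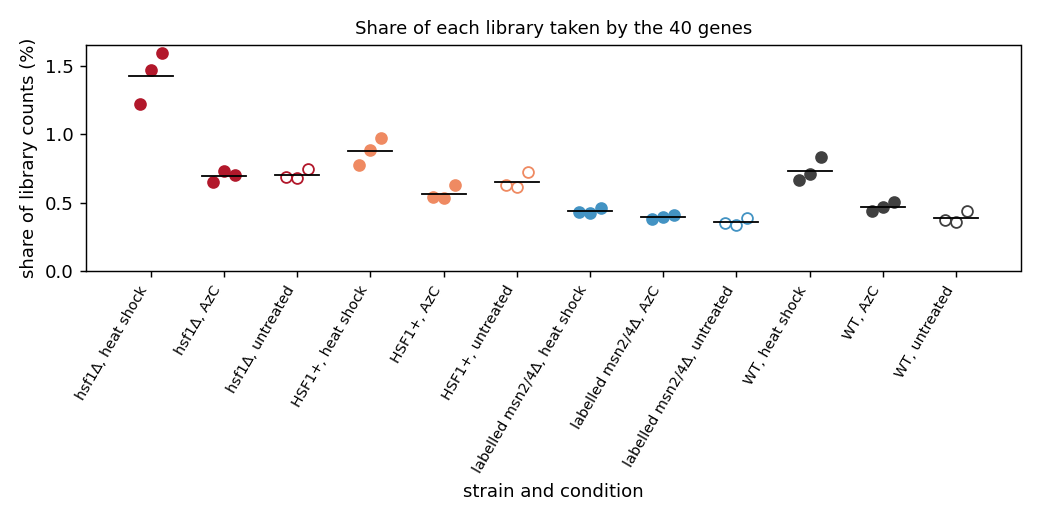
Share of all counts of a library taken by the 40 genes, in percent, by strain and condition; filled points are treated and open points untreated libraries, and the black line is the mean of 3. Heat-shocked libraries lie above untreated libraries in each strain, and the hsf1∆ heat shock libraries lie highest.

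The other genes of respiration moved in part with the module in heat-shocked WT, where 42.0% of all genes were higher and 38.1% lower. Of the remaining nuclear subunits and inhibitors of the ATP synthase all 6 rose, led by STF2, which encodes a protein that stabilises the inhibited enzyme (4.88 ± 0.21, adjusted p = 7.79e-18). Assembly factors had 29 of 33 higher and 1 lower, with SDH6, a complex II assembly factor, at 3.06 ± 0.20, adjusted p = 3.67e-14. Of the 13 citrate cycle genes 12 rose, led by CIT3, a mitochondrial citrate synthase (2.94 ± 0.16, adjusted p = 1.24e-15). Ubiquinone synthesis genes had 10 of 11 higher and 0 lower, led by COQ4 (2.33 ± 0.15, adjusted p = 2.09e-14). Heme synthesis genes went against this, with 2 of 8 higher and 5 lower, the lowest being HEM13, which encodes coproporphyrinogen oxidase (-1.55 ± 0.09, adjusted p = 1.45e-15). Carriers and other electron donors had 4 of 6 higher and 1 lower, led by GUT2, the glycerol-3-phosphate dehydrogenase of the inner membrane (2.87 ± 0.20, adjusted p = 2.17e-13). A more negative heat shock response in labelled msn2/4∆ than in WT, found for 13.9% of all genes, was called for 3 of 6 other subunits and inhibitors, 19 of 33 assembly factors, 5 of 13 citrate cycle, 7 of 11 ubiquinone, 3 of 8 heme, 3 of 6 carrier and 2 of 11 regulator genes. A more positive one, found for 16.3% of all genes, was called for 0 genes of these lists by edgeR, and 0 had an unadjusted p below 0.05 in that direction. Of the 33 assembly factors 15 responded more negatively to heat shock in hsf1∆ than in HSF1+, 1 more positively and 17 did not pass the test, where 14.2% of all genes were more negative and 8.04% more positive.

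Of the 11 regulators of respiratory genes 9 rose and 1 fell in heat-shocked WT, where 42.0% of all genes were higher and 38.1% lower. HAP4, which encodes the activating subunit of the CCAAT-binding complex, averaged 89.1 ± 17.1 CPM in heat-shocked and 47.7 ± 8.55 CPM in untreated WT (SD, n = 3 each) and rose (0.91 ± 0.17, adjusted p = 1.78e-05). It rose as well in heat-shocked hsf1∆ (0.42 ± 0.17, adjusted p = 0.0217) and labelled msn2/4∆ (0.68 ± 0.17, adjusted p = 0.000744), but did not pass the test in HSF1+ (0.25 ± 0.17, adjusted p = 0.169). HAP4 was higher in untreated HSF1+ than in untreated WT (1.08 ± 0.17, adjusted p = 6.61e-06). CAT8, an activator of genes repressed by glucose, rose most of the regulators in heat-shocked WT (3.24 ± 0.16, adjusted p = 1.11e-16) and was also higher in untreated HSF1+ than in untreated WT (2.13 ± 0.16, adjusted p = 1.14e-11). HAP1, a heme-responsive activator, changed by 0.41 ± 0.08, adjusted p = 5.06e-05 in heat-shocked WT. ROX1, the repressor of hypoxic genes, did not pass the test there (0.25 ± 0.18, adjusted p = 0.214) nor after AzC in WT (0.22 ± 0.18, adjusted p = 0.285). Whether these changes take part in those of the module was not tested.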

How the data were processed

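RNA sequencing counts per gene were deposited by the authors for 36 libraries as 1 table of raw counts, not normalized. The labels describe poly-A selected libraries, and Salmon, STAR, Trim Galore and FastQC are listed with build R64, but no versions or roles, per the submitters' processing notes. How the reads were counted per gene, and whether by strand, the sources used here do not give. Reads shared by paralogs, and by overlapping genes on opposite strands, could therefore be assigned to either gene.

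From the counts, genes passing filterByExpr (6109 of 7126) were scaled by TMM and fitted with edgeR 4.0.16 (R 4.3.3, limma 3.58.1) by its quasi-likelihood test, with 1 mean per group over all 36 libraries. Calls needed an adjusted p (Benjamini-Hochberg, over all genes tested) below 0.05 and no fold minimum. Differences between responses are interaction contrasts in the same fit. Isoform ratios are log2 ratios of counts per coding length within a library (pseudocount 0.5), tested by exact permutation within strains. The procedure was tested on simulated data. The alternatives were RLE and library size scaling, no filter, DESeq2 1.42.0, a replicate block, the compared groups alone, the 4 deepest libraries thinned, replicates 2 and 3 alone, each library left out, and a 2-fold minimum.

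Members and lists were chosen with earlier results of these data known. All members could be named, with values per library mainly for the isoform genes, CYB2 and the genes with the largest or smallest changes, and of other lists the extremes and the regulators HAP4, HAP1 and ROX1. Same-numbered libraries deviated together in all 3 pairs (correlation over 0.1 of deviations from the group means) for heat shock in WT (0.224, 0.117 and 0.361), AzC in WT (0.268, 0.163 and 0.380), HSF1+ against WT (0.289, 0.150 and 0.337), labelled msn2/4∆ against WT (0.307, 0.190 and 0.229), both untreated, and AzC against heat shock in WT (0.505, 0.236 and 0.434). This pairing comes from the data and not from a label that names a shared batch. No 2 replicates agreed within sampling noise (chi-square per degree of freedom 7.41 to 99.8). One gene of the other lists is not reported here.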

Additional observations from a re-analysis of the deposited data

Results flagged for a closer look

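The responses of 2 strains to the same treatment were compared by an interaction test in edgeR (Benjamini-Hochberg adjusted p below 0.05), and the genes below differed by more than 2-fold as well. For heat shock in hsf1∆ against HSF1+ 24 genes differed, 21 more positive and 3 more negative, where 8.04% of all genes were more positive and 14.2% more negative. CYC7 differed by -1.22, NDE2 by -1.08 and COX4 by 1.17 on the log2 scale. The call on NDE2 was lost in 11 alternatives.

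For heat shock in labelled msn2/4∆ against WT 24 genes differed, all with a more negative response, where 16.3% of all genes were more positive and 13.9% more negative. CYC7 differed by -3.34, NDE2 by -1.60, CYB2 by -1.58, SDH4 by -1.20, COX13 by -1.18 and COX12 by -1.01. The strain label names both MSN2 and MSN4, while MSN4 had 40.9 to 42.6 CPM in its heat-shocked libraries, against 107.2 to 120.1 CPM in those of WT, and 45.1 to 55.1 CPM in its untreated libraries, against 30.8 to 43.9 CPM in those of WT.

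For AzC in hsf1∆ against HSF1+ 6 genes differed, 3 more positive and 3 more negative. Of all genes 7.55% were more positive and 13.0% more negative, and the counts do not exceed these shares. CYC7 differed by -1.52 and NDE2 by -1.14. The call on NDE2 was lost in 12 alternatives.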

How the results depend on the processing

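No value of a single gene changed sign while called, and the 6 isoform shifts kept their direction and their side of the threshold under all alternatives run. With a 2-fold minimum the genes called for heat shock were 17 in WT, 21 in hsf1∆, 9 in HSF1+ and 9 in labelled msn2/4∆. For AzC they were 9 in WT, 2 in HSF1+ and 6 in labelled msn2/4∆, and 12 for AzC against heat shock in WT. Untreated, they were 1 for hsf1∆ against HSF1+ and 8 for HSF1+ against WT. For differences between responses they were 3 for heat shock in hsf1∆ against HSF1+, 6 for heat shock in labelled msn2/4∆ against WT and 2 for AzC in hsf1∆ against HSF1+. All counts with a 2-fold minimum are given without the share of all genes.

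With the replicate block 27 genes were called for AzC in WT, 25 for AzC in HSF1+, 21 for untreated hsf1∆ against HSF1+, 11 for the difference of AzC responses between hsf1∆ and HSF1+ and 1 for that between labelled msn2/4∆ and WT. The block moved no other count of genes called by more than 1.5 times. It also raised the counts over all 6109 genes, to 2191 higher and 2118 lower for AzC in WT. They were 1606 and 1631 for AzC in HSF1+, and 1340 and 1453 for untreated hsf1∆ against HSF1+. For the differences of AzC responses they were 955 and 1059 for hsf1∆ against HSF1+, and 86 and 120 for labelled msn2/4∆ against WT. With the compared groups alone 20 were called for AzC in HSF1+ and 1 for untreated labelled msn2/4∆ against WT, which also had 1 with the deep libraries thinned.

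Leaving out 1 library at a time gave 8 to 13 genes for untreated hsf1∆ against HSF1+, lowest without untreated hsf1∆ replicate 1. It gave 1 to 2 for untreated labelled msn2/4∆ against WT, 3 to 6 for the difference of AzC responses between hsf1∆ and HSF1+ and 0 to 1 for that between labelled msn2/4∆ and WT, where 1 was called without untreated WT replicate 3. The difference of heat shock responses had 16 to 28 for hsf1∆ against HSF1+ and 16 to 29 for labelled msn2/4∆ against WT. Both were 24 with all libraries. Untreated HSF1+ against WT had 22 to 35 (32 with all libraries), and heat shock in labelled msn2/4∆ 18 to 25 (26 with all libraries). AzC in HSF1+ had 8 to 18 (12 with all libraries). The ranges with 1 library left out are given without the share of all genes. Scaling to library size alone moved the median log2 change of all genes by 0.14 for AzC in WT, 0.20 for AzC and 0.16 for heat shock in labelled msn2/4∆, and 0.12 for untreated hsf1∆ against HSF1+, so small changes there depend on the scaling. The cause of these differences was not tested.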
